A study of Bos taurus with 8 samples.

Results

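The lactoferrin locus was examined across 8 bovine tissues. It is the locus ENSBTAT00000001704 on chromosome 22, from 53521706 to 53560312 in the UMD3.1 assembly, and spans 38607 bases. It was selected by its identifier and position at the lactotransferrin gene (LTF), and also on a measured value, since it had the highest FPKM of all non-mitochondrial loci with an identifier in the mammary library. FPKM is the number of fragments mapped to a locus, divided by the length of its transcripts and by the number of mapped fragments of the library. The identifier stood at 1 locus of the 24886 with an identifier, and the table held 36801 loci in all. No other locus of the table overlapped it. The level in mammary gland and its contrast with the other tissues are therefore given as a description.

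The RNA-Seq data were from cattle, with 1 library for each tissue. These were the mammary gland (parenchyma), the uterus (intercaruncular), 3 parts of the digestive tract (abomasum, ileum and rumen), whole testes, frontal cortex and nucleated blood cells. No treatment was applied. The labels give neither the age nor the sex of the animals. In the study's list of methylation samples, taken from the Hereford cow of the reference assembly and her relatives, the mammary gland, frontal cortex, abomasum and ileum were from juvenile females, the uterus and blood cells from adult females, the testes from an adult male and the rumen from a male fetus, and the study describes the RNA as from those tissues or from a similar collection, so whether each RNA came from the same animal is not clear. With 1 library per tissue there was no replicate, tissue and animal cannot be told apart, and no test between tissues was made. The table does not pair its identifiers with gene symbols, and 0 of them matched RefSeq's genes of ARS-UCD2.0, a later assembly. Markers of the mammary epithelium, fat, stroma and leukocytes, and other genes of milk defence and iron transport, could therefore not be checked by name. The scaled depth, recovered from the smallest FPKM steps, was lowest in mammary gland (6071000 reads) and highest in rumen (15611000 reads).

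Lactoferrin is a secreted glycoprotein of the transferrin family that binds iron tightly in a pair of homologous lobes. It is a whey protein of milk and is found in tears, saliva and mucosal secretions, where it withholds iron from bacteria. It is also stored in the secondary granules of neutrophils. In the udder its concentration in milk is known to rise when the gland involutes or is infected.

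The lactoferrin locus was expressed from the top of the range in mammary gland to below 1 FPKM in blood cells and frontal cortex. Mammary gland had 7223 FPKM. Abomasum followed with 256, uterus with 96.1, whole testes with 37.2 and ileum with 15.5 FPKM. It was 1.29 in rumen, 0.836 in nucleated blood cells and 0.831 in frontal cortex. The locus thus reached 1 FPKM in 6 of 8 tissues, and mammary gland held 94.7% of the FPKM summed over the tissues. Rumen passed 1 FPKM narrowly, and was at 0.740 after the libraries were rescaled to the same summed FPKM.

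**Figure D1:**
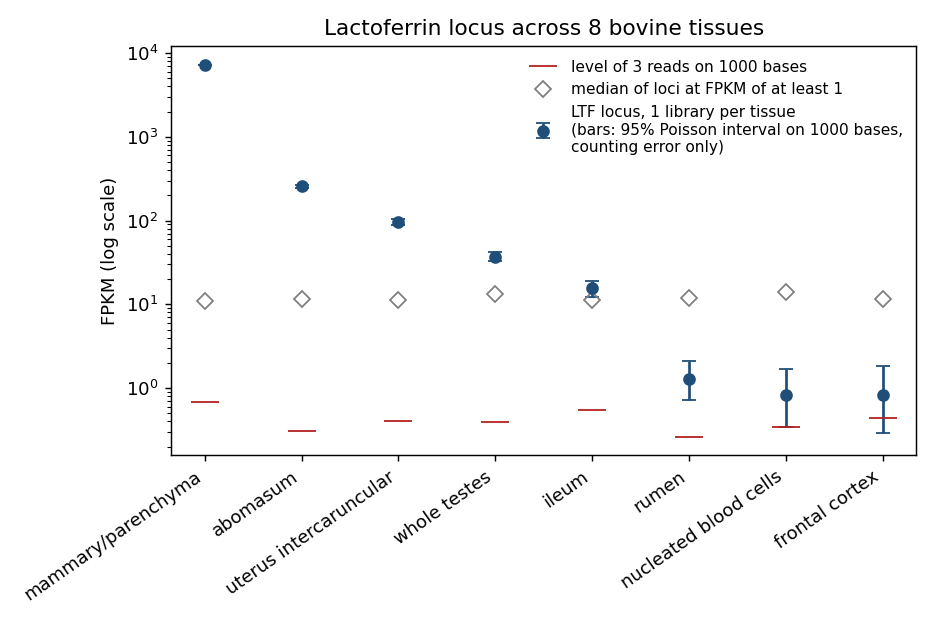
FPKM of the lactoferrin locus on a log scale in 8 tissues, 1 library each, with 95% Poisson intervals for a transcript of 1000 bases. Red dashes mark the level of 3 reads and open diamonds the median of loci at 1 FPKM or more; the locus lies above that median in 5 tissues and below it in rumen, blood cells and frontal cortex.

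The number of reads behind each level was approximated to judge its precision. The length of the transcript is not in the table, so reads were counted on 1000 bases, and a longer transcript would carry more. On that length the mammary value corresponded to 31874 reads, and the values in abomasum and uterus to 2507 and 711 reads. Whole testes and ileum had 280 and 84.9 reads. The lowest 3 tissues rested on few reads, with 14.6 in rumen, 7.35 in nucleated blood cells and 5.64 in frontal cortex. Their 95% Poisson intervals ran from 0.713 to 2.14 FPKM in rumen, from 0.345 to 1.69 in blood cells and from 0.293 to 1.85 in frontal cortex. These intervals cover counting error only, since there was 1 library per tissue. The reads carry no molecular identifiers, so duplicate reads could not be told apart. A count of 0 would allow 0.264 to 0.680 FPKM on this length, depending on the library.

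Neighbouring tissues in this order were then compared, with intervals for counting error. Mammary gland exceeded abomasum 28.2-fold (27.0 to 29.3). Abomasum exceeded uterus 2.67-fold (2.45 to 2.90), uterus exceeded whole testes 2.58-fold (2.25 to 2.98) and whole testes exceeded ileum 2.40-fold (1.88 to 3.1). Ileum exceeded rumen 12.0-fold (6.86 to 22.6). Below this step, rumen and blood cells had a ratio of 1.54 (0.595 to 4.37) and blood cells and frontal cortex a ratio of 1.01 (0.291 to 3.70). The ratio of rumen to frontal cortex was 1.55 (0.553 to 5.06). On the assumed length of 1000 bases, no difference among these 3 tissues was detectable. A longer transcript would narrow these intervals, while rescaling the libraries changed the order of the 3 tissues.

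The size of each step was set beside that of all loci with an identifier that reached 1 FPKM in either tissue of the pair. Differences were taken on the log2(FPKM + 1) scale, which understates those of low loci. The step from abomasum to mammary gland was 4.81, and 83 of 13777 loci (0.602%) rose by as much or more. The step from rumen to ileum was 2.85, matched by 4.95% of loci. The steps from uterus to abomasum (1.41), from whole testes to uterus (1.35) and from ileum to whole testes (1.21) were matched by 11.6%, 14.6% and 30.9% of loci. The steps in the middle of the order were shared by many loci. The step to mammary gland uses the level that chose the locus, so nothing is read from its share.

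Because the locus was chosen for its mammary level, its rank there is fixed by the rule, and its place in the other tissues is what varies. Among 24884 loci with an identifier outside the mitochondrial genome, it ranked 1 in mammary gland, 314 in abomasum and 666 in uterus. It ranked 3552 in whole testes and 5229 in ileum. In nucleated blood cells, rumen and frontal cortex it ranked 11396, 11647 and 13120. Its level was 21.8 times the median of expressed loci in abomasum, 8.56 times in uterus, 2.83 times in whole testes and 1.39 times in ileum, where expressed means at least 1 FPKM. It was 0.107 times that median in rumen, 0.0724 times in frontal cortex and 0.0600 times in blood cells. In mammary gland the locus alone held 1.25% of the summed FPKM, against 0.0365% in abomasum. Over all loci of the table, those without an identifier included, these shares were 0.907% and 0.00332%, and the rank in abomasum was 916.

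The loci just outside the rule had a different distribution over tissues. The second most abundant locus of the mammary library, ENSBTAT00000024376 on chromosome 10, had an FPKM of 6960, so that the lactoferrin locus was 1.04 times higher. That locus ranged from 1819 in whole testes to 21580 in rumen. The locus ranked 4, ENSBTAT00000019318 on chromosome 9, had an FPKM of 5826 in mammary gland and of 1343 in frontal cortex, its lowest tissue. The loci ranked 3 and 5, on chromosomes 23 and 17, had 6414 and 5685 FPKM in mammary gland. Across the 9 loci ranked from the second place to the tenth, the lowest FPKM in any tissue was 29.4, and the highest level was 3.98 to 372 times the lowest. Of these 10 loci, the lactoferrin locus was the 1 whose highest tissue was mammary gland. Of the 100 most abundant loci, 12 were highest in mammary gland and 9 exceeded every other tissue at least 5 times on the FPKM + 1 scale.

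**Figure D2:**
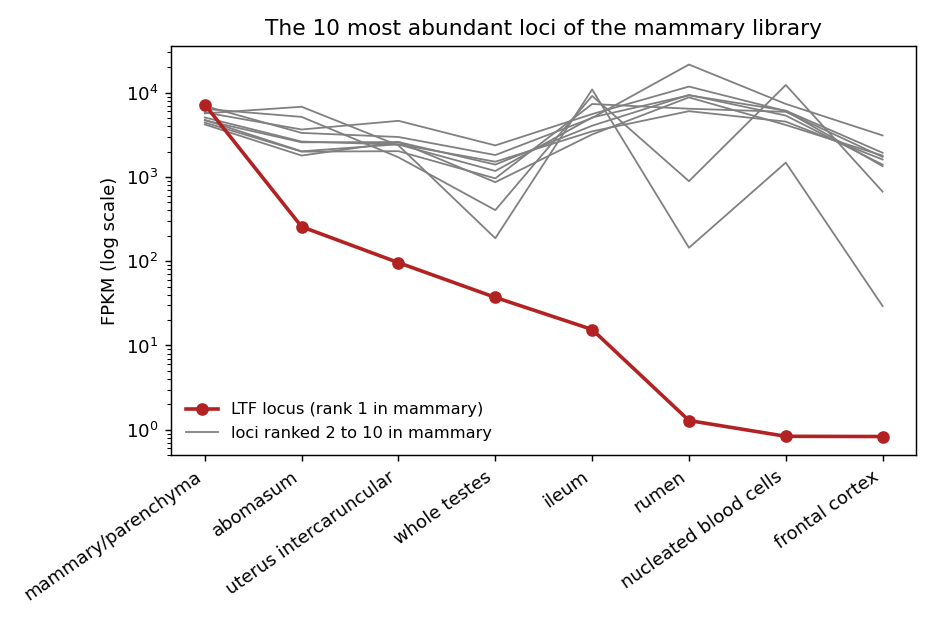
FPKM on a log scale of the 10 most abundant loci of the mammary library in each tissue, with tissues ordered by the lactoferrin level. The red line of the lactoferrin locus falls from 7223 to 0.831, while the other 9 loci (grey) stay at or above 29.4 in every tissue.

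The contrast between mammary gland and each other tissue was compared with that of all 24886 loci with an identifier. The lactoferrin locus was at least 5 times higher in mammary gland than in each of the 7 other tissues. Such a difference was found at 3.58% of loci against whole testes, 3.48% against frontal cortex, 1.65% against uterus and 1.71% against abomasum. It was found at 1.38% of loci against ileum, 2.35% against rumen and 5.78% against nucleated blood cells. A difference of this size from all other tissues at once was found at 54 loci, or 0.217%. Mammary gland was the highest tissue for 834 of 17484 loci expressed in any tissue, or 4.77%. Nothing was read from these shares about the lactoferrin locus, since they use the mammary level that chose it.

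Among the 54 mammary-enriched loci the lactoferrin locus had the highest FPKM, which the rule fixes, but was not the most specific. Its fold and specificity within this list also use the mammary level that chose it. The second highest level in this list, 4142 FPKM, was found at a locus on the X chromosome that spans 92 bases, where a single read is worth many FPKM. The median of the list was 80.8 FPKM. On the FPKM + 1 scale the lactoferrin locus exceeded the next tissue 28.1 times, which placed it at number 25 of the 54, where the median was 24.1. The tau index, a measure of tissue specificity that is 0 where all tissues have the same level and 1 where a lone tissue has any, was 0.701. For 47 of the 54 loci it was higher, and the median of the list was 0.946. Of the 54 loci, 14 were listed at 0 in all 7 other tissues, and 10, the lactoferrin locus included, were above 0 in all 8. Loci of the first kind have a tau of 1 at any mammary level. However, 17 of the 54 spanned under 300 bases or had the same coordinates as another locus, so that reads may have been assigned to either. Without them, a choice made after the values were seen, 2 of 37 loci were listed at 0 in all other tissues, the lactoferrin locus was number 13 by fold, and 32 had a higher tau (median 0.917). Over the 17484 expressed loci the median tau was 0.436, and 29.6% had a tau of at least that of the lactoferrin locus. With the mammary library left out, the tau of the locus over the remaining 7 tissues was 0.608.

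**Figure D3:**
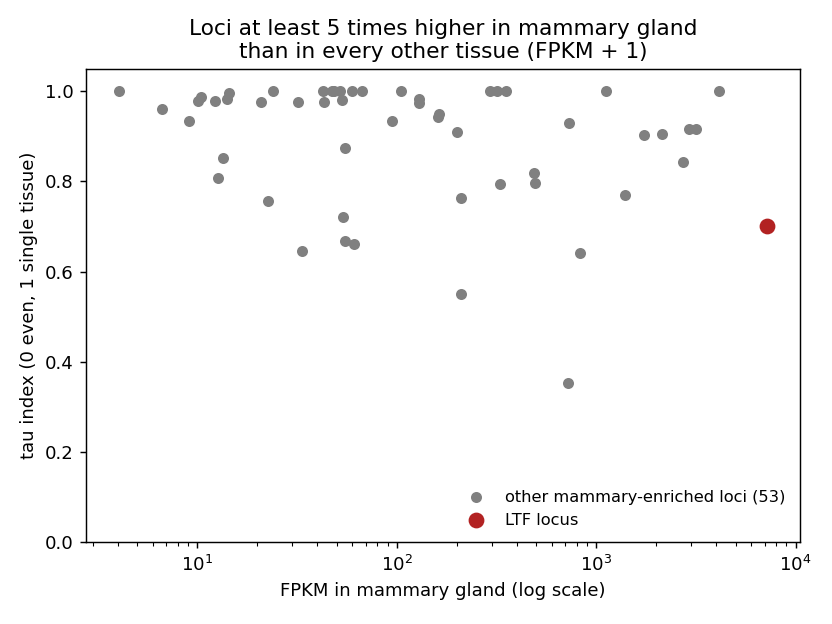
The 54 loci at least 5 times higher in mammary gland than in every other tissue, by mammary FPKM (log scale) and tau index. The lactoferrin locus (red) lies farthest to the right at 7223 FPKM, which the rule fixes, with a tau of 0.701 below that of 47 other loci.

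The tissue next to mammary gland varied within this list. Of the 40 loci above 0 in any other tissue, abomasum came next for 5 (12.5%), the lactoferrin locus among them. Whole testes came next for 11 loci, frontal cortex for 8, uterus for 5, rumen for 5, ileum for 4 and blood cells for 2. Among the 811 loci highest in mammary gland and above 0 in any other tissue, abomasum came next for 122 (15.0%), a share near that of the list.

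The other mammary-enriched loci with at least 1000 FPKM in mammary gland were followed through the other tissues. There were 8, of which 1 spans 92 bases and 2 have the same coordinates as other loci, and the remaining 5, chosen after the values were seen, are described. In abomasum 3 of the 5 were listed at 0 and the highest had 3.35 FPKM, while the lactoferrin locus had 256. In uterus 4 of the 5 were listed at 0 and the highest had 7.60 FPKM, while the lactoferrin locus had 96.1. As a percentage of its mammary level, the lactoferrin locus stood at 3.55% in abomasum, 1.33% in uterus, 0.515% in whole testes and 0.214% in ileum. The highest percentages among the 5 loci were 0.241%, 0.546%, 0.226% and 0.212% in these tissues. The 5 loci were chosen for being low outside the mammary gland, so nothing is read from the comparison.

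In frontal cortex all 5 loci were above 0, with a median of 2.81 FPKM and a maximum of 94.3. In rumen 4 of the 5 were above 0, with a median of 2.70 and a maximum of 25.2. The lactoferrin locus was lower than these medians, at 0.0115% of its mammary level in frontal cortex and 0.0178% in rumen. In nucleated blood cells 3 of the 5 were listed at 0 and the maximum was 8.86 FPKM. Whether a part of the lactoferrin levels outside the mammary gland came from other tissues or libraries was not tested. In bulk tissue, fewer cells of a type and less RNA per cell cannot be told apart.

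The loci with the pattern most like that of the lactoferrin locus were found by the Pearson r of log2(FPKM + 1) over the 8 tissues. The search covered 13226 other loci with at least 10 FPKM in any tissue, whose median r was -0.01. An r of at least 0.9 was found for 8 loci (0.0605%). These values describe 8 points, of which the mammary library is the most extreme. The closest locus was ENSBTAT00000048696 on chromosome 25 (2211260 to 2217479), with an r of 0.946. Its FPKM was 209 in mammary gland, 27.1 in abomasum, 20.4 in whole testes, 5.74 in uterus, 0.384 in ileum and 0.252 in frontal cortex, and it was listed at 0 in rumen and blood cells. It was thus low where the lactoferrin locus was lowest, but it was higher in whole testes than in uterus and was also low in ileum.

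The second closest was ENSBTAT00000010330, which lies on chromosome 22 (48613844 to 48631076), 4891 kb from the lactoferrin locus, with an r of 0.929. Its FPKM was 28.1 in mammary gland, 8.43 in abomasum and 7.74 in uterus, and 0.235 to 3.29 in the other tissues. The third lies on chromosome 4 (r = 0.927) and the fifth on chromosome 21 (r = 0.914). The locus on chromosome 21 had nearly equal levels in mammary gland (89.0 FPKM) and abomasum (88.2 FPKM). The mammary levels of the 5 loci were 11.2 to 209 FPKM, and that they are below the lactoferrin level is fixed by the rule. The search was for a profile that peaks in mammary gland, so nothing is read from the highest tissue of the loci it found, and the loci in places 2 and 4 reached 10 FPKM in mammary gland alone. The choice of measure mattered, since 2 of the 5 stayed among the closest 5 by Spearman's rho and 0 did so without the mammary library. Over the other 7 tissues their r was 0.837 to 0.884, while that of the 5 loci then closest was 0.961 to 0.986.

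**Figure D4:**
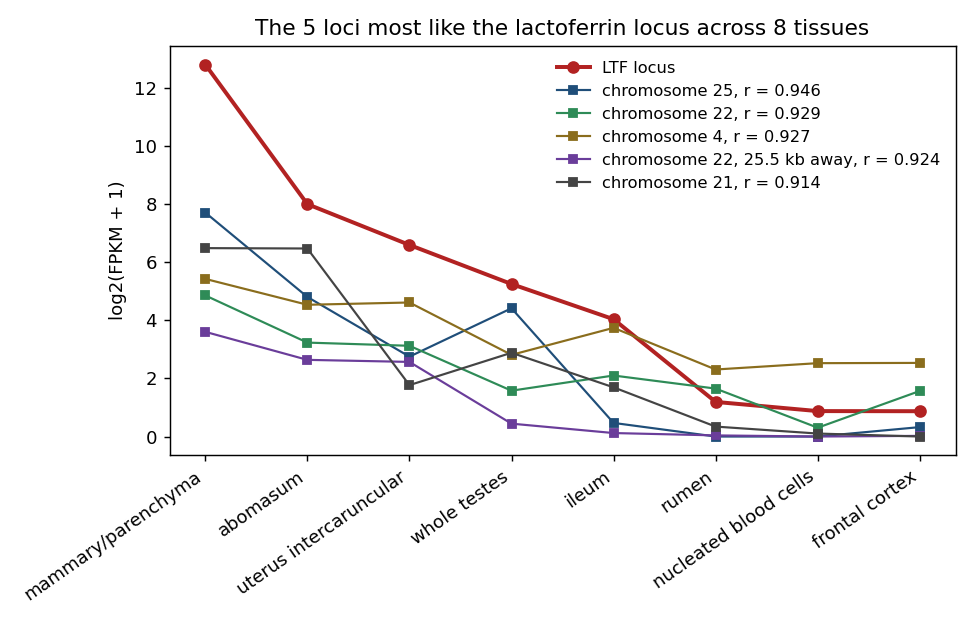
log2(FPKM + 1) of the lactoferrin locus (red) and of the 5 loci with the highest Pearson r to it over 8 tissues. All 6 lines are highest in mammary gland, and the line of the locus 25.5 kb away falls from 11.2 FPKM in mammary gland to 0 in blood cells.

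The locus in the fourth place, ENSBTAT00000044459 (r = 0.924), which entered the search through its mammary level alone, was the nearest neighbour of the lactoferrin locus on the side of lower coordinates. It lies on chromosome 22 from 53448776 to 53496180, with a gap of 25.5 kb to the lactoferrin locus. Its FPKM was 11.2 in mammary gland, 5.24 in abomasum and 4.94 in uterus. It was 0.360 in whole testes, at most 0.0868 in ileum, rumen and frontal cortex, and listed at 0 in blood cells. The first 3 tissues stood in the same order at both loci, but in a different proportion. The neighbour had 0.155% of the lactoferrin level in mammary gland, 2.04% in abomasum and 5.14% in uterus, so the ratio of the loci was not constant. A locus 298 kb away on the same side also had a high r (0.857, place 19 of the 13226), and was singled out after its value was seen. Its FPKM was 18.2 in abomasum, 15.4 in mammary gland, 8.59 in whole testes and 4.46 in uterus, and it was at most 1.91 elsewhere. Another locus with the same coordinates was highest in uterus, with 16.6 FPKM, and had an r of -0.02, so reads of this pair may not be fully separable.

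A further locus with an identifier shares the span of the nearest neighbour, so reads of these loci may not be fully separable. Its highest FPKM was 11.2, in uterus, and it had 7.86 in rumen and 1.78 in mammary gland. It did not follow the lactoferrin locus (r = 0.173). In RefSeq's ARS-UCD2.0 annotation, LTF lies between RTP3, a receptor transporter protein gene, and CCRL2, a gene of the chemokine receptor family. LRRC2, a leucine-rich repeat gene, follows beyond RTP3, and CCR2 and CCR3, which encode chemokine receptors of leukocytes, lie beyond CCRL2. The loci of the table were not assigned to these symbols.

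On the side of higher coordinates, the nearest locus, ENSBTAT00000008096 (53567797 to 53569696), lies 7.49 kb from the lactoferrin locus. Its FPKM was 7.31 in nucleated blood cells, 5.86 in ileum, 3.58 in abomasum, 2.16 in mammary gland, 2.09 in uterus, 1.23 in frontal cortex, 0.930 in rumen and 0.342 in whole testes. Its level in blood cells was thus above that of the lactoferrin locus, while in mammary gland it was lower, which the rule fixes. The first 6 loci on this side, up to a gap of 292 kb, all had their highest level in blood cells and their next in ileum, an order found at 5.08% of expressed loci. The run was noticed in the values, and it ends where the order changes. They had 7.31 to 85.1 FPKM in blood cells and 0.596 to 2.77 in mammary gland. The tissue that was highest at these loci was thus 1 of the 3 where the lactoferrin locus was lowest.

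The whole neighbourhood held 26 other loci with an identifier within 500 kb of either end, 15 on the side of lower coordinates and 11 on the other. Mammary gland was the highest tissue for 2 of the 26, the neighbour at 25.5 kb and a locus at 391 kb with 17.4 FPKM in mammary gland and 17.0 in ileum, beside 4.77% of expressed loci in all. Another locus with the coordinates of the latter was highest in blood cells (86.1 FPKM), so reads of this pair may not be fully separable. Nucleated blood cells was the highest tissue for 7 of the 11 loci on the side of higher coordinates, that locus included, while it was so for 15.1% of expressed loci in all. On the side of lower coordinates, whole testes and uterus were each the highest tissue for 5 of the 15, while testes was so for 30.8% and uterus for 7.46% of expressed loci in all. The 5 testis loci lay side by side, 178 to 281 kb away, with 8.68 to 95.6 FPKM in testes and at most 0.393 in mammary gland. This run, too, was noticed in the values. The highest FPKM of any neighbour in mammary gland was 38.0, and the lactoferrin locus exceeded it 190-fold there. Nothing is read from this contrast, since the rule chose the locus with the highest mammary level. Of the 26 loci, 10 were below 1 FPKM in mammary gland, 6 of them listed at 0.

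**Figure D5:**
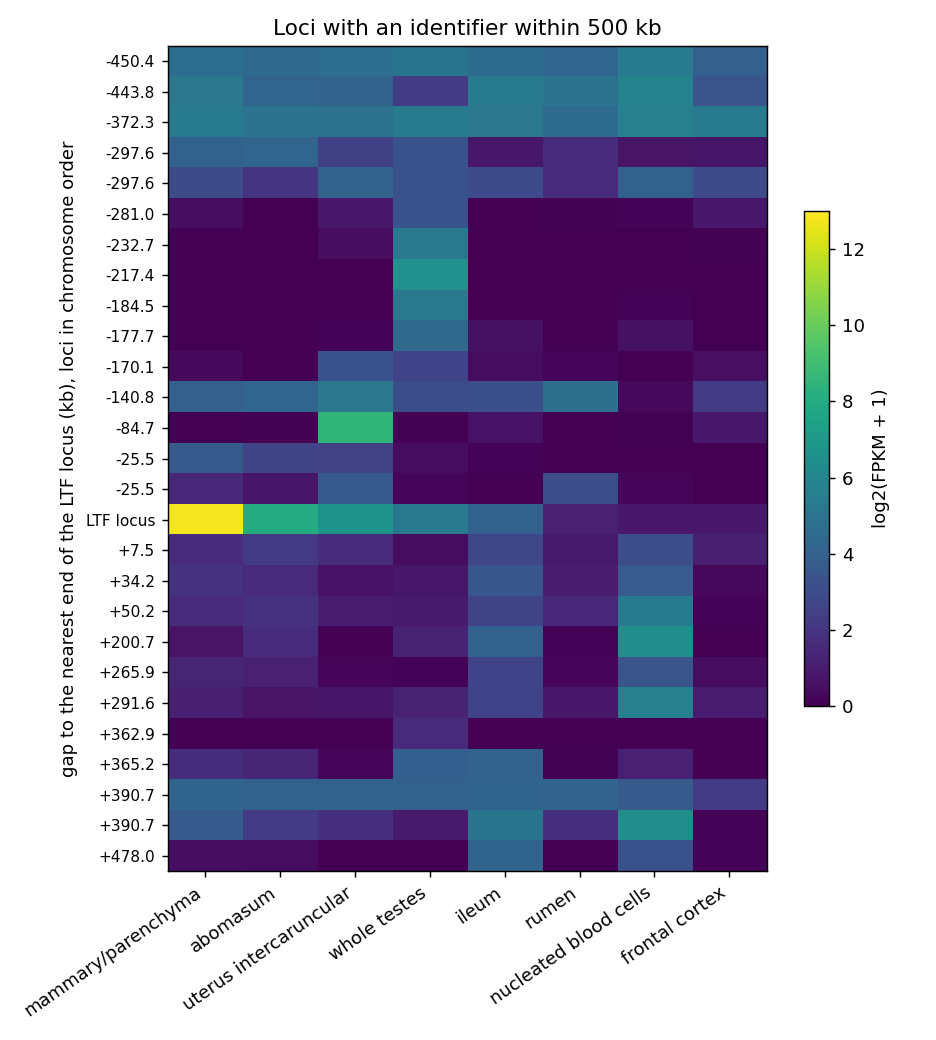
log2(FPKM + 1) of the 26 loci with an identifier within 500 kb of the lactoferrin locus and of the locus itself, in chromosome order, with the gap in kb at the left and tissues ordered by the lactoferrin level. The lactoferrin row is brightest in mammary gland, the 6 loci below it are brightest in blood cells, and 5 loci above it, 178 to 281 kb away, are brightest in whole testes.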

How the data were processed

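RNA-Seq was performed on 8 tissues, 1 library each, grouped by the tissue label. Single-end reads were filtered, aligned to UMD3.1 with TopHat2 (version 2.0.13 per the submitters' processing notes) and quantified with Cufflinks at default parameters. The deposited values are FPKM per locus, scaled between libraries by the authors' software. The table also holds the authors' fold changes, test statistics, p-values and q-values for 28 pairs of tissues, which were not used. FPKM was taken for each library, and 0 loci had values that differed between pairs. Starts were converted to count from 1.

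Loci without an identifier (11915) were left out, except in the recovery of depth and in named alternatives. Overlapping genes are uncertain, since 816 identifiers stood at more than 1 locus and 2093 loci carried more than 1 identifier. A value of 0 can be a failed estimate and is given as listed at 0. Depth was recovered from short loci (88 to 130 bases, no identifier), by an effective length from fragments of 200 ± 80 bases (mean ± SD) and at least 87 bases. The smallest depth that gave whole reads, within 0.03, for at least 95% of these loci was refined to the best fit, where 96.4% to 100% were whole. The recovered depth is scaled and approximate. It rests on the smallest depth that fitted and was not compared with the amount of sequence that the study reports. Read numbers were to be based on the coding length, which the reference table does not give, so 1000 bases were used instead.

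Steps between tissues, the tau index and likeness used log2(FPKM + 1). Folds of mammary-enriched loci and their alternatives used FPKM + 1, while folds between neighbouring tissues in the order were plain FPKM ratios. Mammary-enriched loci had at least 1 FPKM and at least 5 times the FPKM + 1 of every other tissue. Ranks left out 2 mitochondrial loci. Intervals are exact Poisson (95%) or, for ratios, exact binomial. No test was run. Named loci were the lactoferrin locus, its nearest neighbours, ranks 2 to 5 in mammary gland and the 5 loci of highest r, with at most 2 identifiers printed per set. The locus, lists and rules were chosen with earlier results of these data known. Depth recovery and likeness were tested on simulated data. The depth simulation used the same assumed fragment lengths as the recovery, so it could not check them. Tau was only computed for made patterns of a single tissue and of an even level. Alternatives covered scaling, pseudocount, locus sets, thresholds, window and leaving out each tissue. Sequences of the lactoferrin protein and of its relatives serotransferrin and melanotransferrin were not analysed here. Python 3.11.15 with pandas 2.3.3, numpy 2.4.6, scipy 1.17.1 and matplotlib 3.10.9 was used.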

Additional observations from a re-analysis of the deposited data

How the results depend on the processing

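A value was taken to hold where it stayed in its counting interval, and a count where it stayed within 1.5 times the reported one. Of 97 alternative values 55 held. Some could not change, such as the fold over abomasum when a tissue other than abomasum or mammary gland was left out. The rank in mammary gland among longer loci was set by the rule. The tally is therefore not a measure of robustness. Unless a reason is given, the cause was not tested. Depth and the unknown transcript length limit the 3 lowest levels, and differences between animals cannot be measured. No paired analysis was possible because there was a single library per tissue.

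Rescaling to the same summed FPKM gave 8673 FPKM in mammary gland and 139 in uterus, and the median ratio gave 7636 in mammary gland. The fold over abomasum became 34.1 under the first, from 28.1, both on the FPKM + 1 scale. Mammary gland, abomasum, uterus, testes and ileum kept their order under both, while rumen was lowest under the first (0.740) and blood cells under the second (0.793). The step from rumen to ileum widened under the first, with 16.2 FPKM in ileum. Without abomasum the fold over the next tissue on the FPKM + 1 scale was 74.4, and without mammary gland, 2.65. Tau was 0.581 and 0.485 with a pseudocount of 0.1 and 0.01. It was 0.662 without frontal cortex or blood cells, 0.666 without rumen, 0.608 without mammary gland, 0.737 without uterus and 0.755 without abomasum.

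Over all loci of the table, more loci compete by construction. The rank became 3 in mammary gland, below the mitochondrial locus and a locus of 125 bases without an identifier. It became 916 in abomasum, 4336 in testes, 14352 in rumen, 14440 in blood cells and 17206 in frontal cortex. The share of summed FPKM became 0.907% in mammary gland, 0.00332% in abomasum, 0.0158% in uterus, 0.00327% in testes, 0.00161% in ileum and 5.7e-05% in rumen.

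Mammary-enriched loci numbered 197 at a fold of 2 and 83 with a pseudocount of 0.1. Of the 5 closest loci, 2 stayed among the closest 5 by Spearman's rho, 2 at a minimum of 1 FPKM and 0 without mammary gland. The window held 13 loci within 250 kb, 1 of them highest in mammary gland, and 42 within 1000 kb. With the whole span as the length, an upper bound, reads were 1552360 in mammary gland, 122116 in abomasum, 34624 in uterus, 13631 in testes, 4135 in ileum, 711 in rumen, 358 in blood cells and 275 in frontal cortex.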

Other observations

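The order of abomasum, uterus and whole testes after mammary gland was shared by 3 of the 834 loci with an identifier that were highest in mammary gland (0.360%), the lactoferrin locus included. This count was chosen after it had been seen, and no explanation is offered. The shares of other orders were not computed, so whether this order is rare cannot be read from the count.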
